A study of Saccharomyces cerevisiae with 12 samples.

Results

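The comparison described here is that of S. cerevisiae BY4741 grown for 20 h with 4 µg/mL PeAfpA (condition 4) against the same strain grown for 20 h without the protein (condition 1, control). PeAfpA is an antifungal protein of the mould Penicillium expansum, and BY4741 is a haploid MATa laboratory strain that carries deletions in HIS3, LEU2, MET17 and URA3 in both groups. Each group holds 3 libraries, replicates 1 to 3, which are called 1A, 1B and 1C for the control and 4A, 4B and 4C for condition 4. These are 6 of the 12 libraries of the series, whose other 6 come from 1 and 2 µg/mL PeAfpA. The libraries were made from separate flasks of 5% YPD, all of the same strain, so p-values measure the spread between such flasks. What was counted is every gene of the table that passed a low filter, a mean of at least 1 TPM (counts scaled for gene length and library): 5909 of 6600 features. The description turns on which functions changed beyond the genes with the largest fold changes, and on how far each of the 3 treated libraries lay from the controls.

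Some background serves the results. A yeast culture that has used up its glucose lives on the ethanol and acetate it made, with the glyoxylate cycle, gluconeogenesis, fatty acid oxidation and respiration switched on and ribosome synthesis turned down. In growing cells a large part of the transcripts goes to ribosomal proteins, glycolytic enzymes and wall proteins, and the wall is rebuilt through the cell wall integrity (CWI) pathway when it is damaged. Many steps of metabolism have a pair of isozymes, of which each is made under other growth conditions.

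Total counts of the 6 libraries lay between 8696214 and 10045702. LEU2, URA3 and MET17 had 0 counts in each of them, and HIS3, part of which remains in BY4741, had 381 to 591 counts. In counts scaled to library size (CPM), the 6 genes of a-cells, such as the pheromone receptor STE2, summed to 681 to 901 in the controls and 1454 to 1935 CPM in condition 4. The 4 genes of alpha-cells summed to 121 to 161 and 86.2 to 107 CPM, but did not move together. SAG1 had 972, 820 and 1100 counts in 1A to 1C and 564, 461 and 341 in 4A to 4C. STE3 went the other way, from 121, 124 and 133 to 224, 242 and 299 counts. MFALPHA1 and MFALPHA2 overlapped between the groups. The squared differences between replicates were 35.1 to 44 times those of counting error among the controls and 26.2 times between 4A and 4B. They were 200 times between 4A and 4C and 137 times between 4B and 4C, so that 4C stood apart, and for each list of genes the text names the libraries whose loss moved its count of differentially expressed genes (DEGs) by more than 1.5 times. The a-cell and alpha-cell sums use library size alone. The CPM values below are relative to library sizes scaled by the TMM method. Its factor was 0.808 in 4C and 0.99 to 1.12 in the other 5 libraries.

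By edgeR's quasi-likelihood test in a fit over the 12 libraries, 1139 genes (19.3% of the 5909 tested) were upregulated and 1357 (23.0%) were downregulated at an adjusted p under 0.05, together 42.2%. These shares are the background for every list below, and over all genes tested the log2 fold change had a median of -0.04. Most of the DEGs changed by less than 1 on the log2 scale, which is less than 2-fold: 623 of the upregulated (54.7%) and 770 of the downregulated ones (56.7%). Only 47 rose and 61 fell by more than 3. All 3 treated libraries lay above all 3 controls for 1620 genes (27.4%) and below them for 1872 (31.7%), together 59.1%, and 2451 of the 2496 DEGs were among these. Without 4C there were 664 upregulated (11.2%) and 827 downregulated genes (14.0%), and without 1C 683 and 973. In every one of the 6 fits that left out 1 of these 6 libraries, 553 genes were upregulated and 760 downregulated, and these are called DEGs in all 6 fits below. These counts, out of the 5909 genes tested, are the background for the counts of each list in all 6 fits. With library size alone in place of TMM factors, the median of all genes moved to -0.24, with 756 upregulated (32.5% of the DEGs) and 1570 downregulated genes, against 45.6% upregulated with TMM.

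The DEGs moved a large part of the transcriptome. Genes that were upregulated held 22.8%, 22.4% and 23.0% of the counts in controls 1A to 1C and 39.1%, 43.1% and 53.2% in 4A to 4C. Downregulated genes went from 29.4%, 30.1% and 28.4% to 12.5%, 10.4% and 6.74%. These shares describe genes chosen on the same libraries. In CPM the largest rise was that of SED1 (YDR077W, chromosome IV from 600793 to 601809 of the R64 assembly), a GPI-anchored wall protein, which had 3380, 5192 and 5835 CPM in controls 1A to 1C and 10780, 12570 and 22050 CPM in 4A to 4C (log2 fold change 1.66, SE 0.49, edgeR adjusted p = 0.0181, not a DEG without 1A, 1B or 4C, edgeR adjusted p up to 0.07). The wall proteins CWP2 and CCW12 followed it, with 1382, 2327 and 1799 against 7373, 9520 and 15200 CPM and 825, 1058 and 869.5 against 4725, 5715 and 11870 CPM. Each treated library was above each control for these 3 genes. The rest of the 10 largest rises were PDC1 (lost without 1A, 1B, 1C or 4C, adjusted p up to 0.0881), CDC19, GPM1 and ENO1 (lost without 1A, 1B, 1C, 4A or 4B, adjusted p up to 0.0904) of glycolysis and fermentation, the wall protein HSP150 (lost without 1A, 1B, 1C or 4C, adjusted p up to 0.101), the proton pump PMA1 and the elongation factor YEF3 (lost without 1B or 1C, adjusted p up to 0.0534). The 10 largest falls were ICL1, MLS1, PCK1, ACH1 and ADH2 of ethanol and acetate use, the glutamate dehydrogenase GDH3, the stress genes GRE1 and SIP18, the mitochondrial outer membrane protein OM45 and the Hsp70 SSA3.

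**Figure D1:**
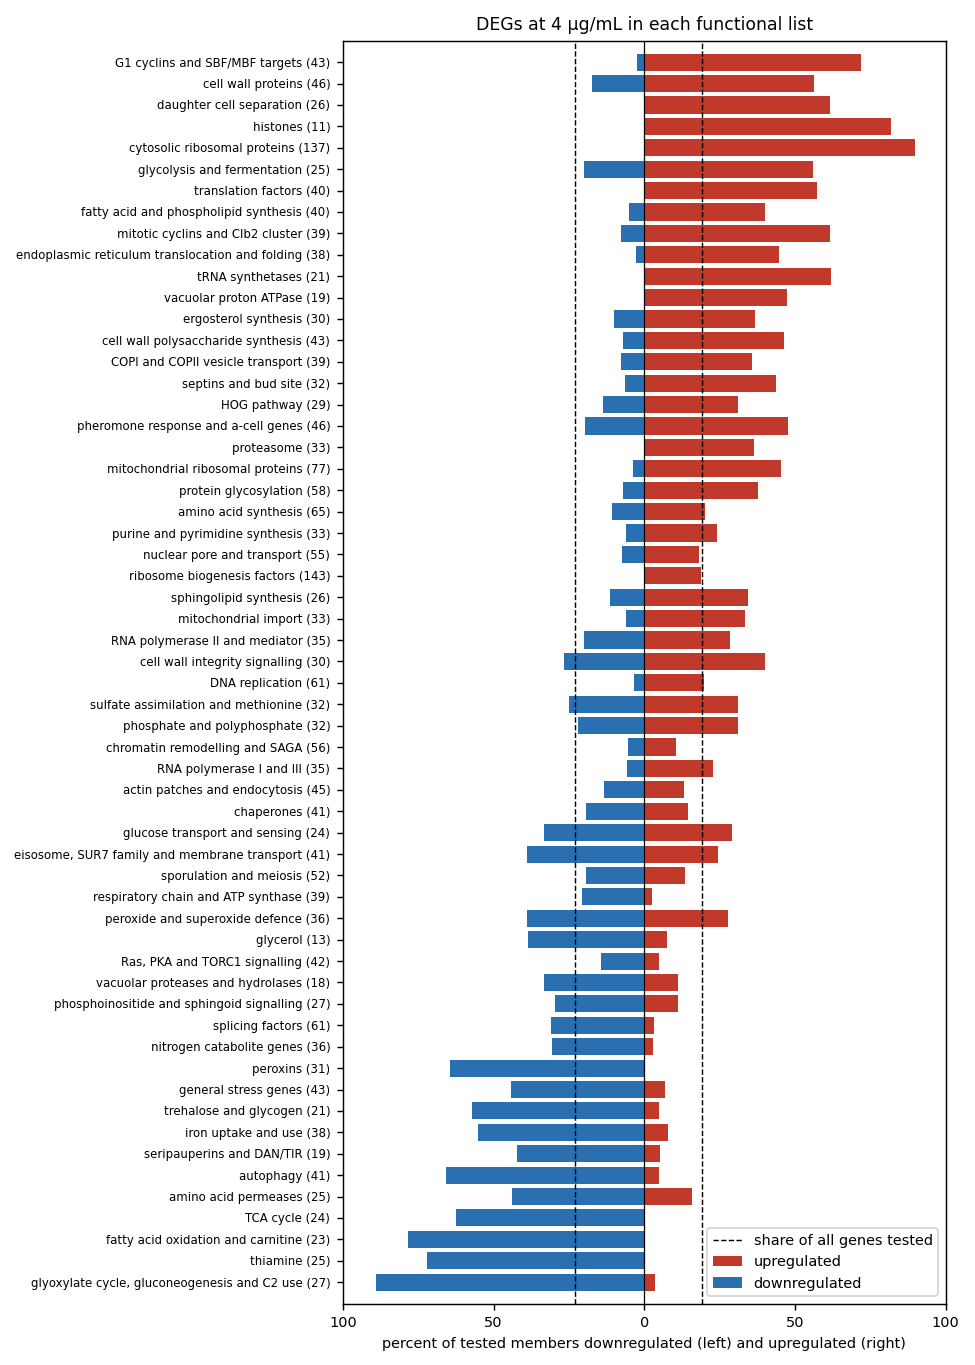
Share of the tested members of each functional list that were upregulated (red, to the right) or downregulated (blue, to the left) at 4 µg/mL, in percent, with the number tested in parentheses and dashed lines at 19.3% and 23.0%, the shares over all genes tested. The list of the mitochondrial genome, with 2 genes tested, is not drawn. Cytosolic ribosomal proteins reach 89.8% upregulated with none downregulated, and the list of glyoxylate cycle and gluconeogenesis reaches 88.9% downregulated.

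Genes of protein synthesis that changed nearly all rose, but in unequal shares. Of the 137 genes of cytosolic ribosomal proteins, 123 were upregulated and none downregulated (19.3% and 23.0% over all genes), with a median log2 fold change of 1.04. The size of this rise depended on 4C. Without it the median was 0.58, and 1C and 1B also moved the count. The group had 52 rises without 4C, 55 without 1C, 72 without 1B, and 50 rises in all 6 fits. Their summed share of the counts was 5.72%, 5.25% and 5.41% in the controls, 6.96% in 4A, 8.41% in 4B and 13.7% in 4C. The largest rise was that of RPL9A (YGL147C), a protein of the large subunit, which had 179, 132 and 151 CPM in the controls and 243, 352 and 896 CPM in 4A, 4B and 4C (log2 fold change 1.69, SE 0.40, edgeR adjusted p = 0.00679). RPL3, the most abundant of them, had 1410, 1216 and 1187 CPM in the controls and 1378, 2015 and 4502 in condition 4, so that 4A lay within the controls (log2 fold change 1.05, SE 0.36, edgeR adjusted p = 0.0318, not a DEG without 1A, 1B, 1C or 4C, edgeR adjusted p up to 0.156). Of the 137 genes, 38 have a near-identical copy between which reads could have been divided, and 91 of the other 99 were upregulated.

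Translation factors followed, with 23 of 40 upregulated, none downregulated and a median of 0.61. This list had 11 rises without 1C or 4C, 13 without 1B, and 7 rises in all 6 fits. YEF3 (YLR249W), the fungal elongation factor eEF3, had 2673, 1733 and 1778 CPM in the controls and 4433, 4253 and 7270 CPM in condition 4 (log2 fold change 1.37, SE 0.37, edgeR adjusted p = 0.0126, not a DEG without 1B or 1C, edgeR adjusted p up to 0.0534). TEF1 and TEF2, near-identical genes for the elongation factor EF-1A, rose by 1.17 and 1.46 on the log2 scale, and neither was a DEG without 1C or 4C (adjusted p up to 0.0628 and 0.0751). Of the 21 cytosolic tRNA synthetases 13 were upregulated, with a median of 0.49. There were 7 rises without 4C, 8 without 1B or 1C, and 7 rises in all 6 fits. TYS1 (YGR185C, chromosome VII from 866336 to 867520), for tyrosine, had 88.7, 114 and 111 CPM in the controls and 169, 229 and 326 CPM in condition 4, without overlap (log2 fold change 1.20, SE 0.24, edgeR adjusted p = 0.00296). Both lists thus had a larger share of upregulated members than all genes did, and no member of either fell.

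The genes that build ribosomes did not move to the same extent. Of 143 ribosome biogenesis factors 27 were upregulated (18.9%, against 19.3% of all genes) and none downregulated, with a median of 0.22. The list had 7 rises without 1B or 4C, 8 without 1C, 16 without 4B, and 7 rises in all 6 fits. NSR1, the nucleolin of yeast and the most abundant of them, had 1248, 570.0 and 810.5 CPM in the controls and 1169, 1064 and 1159 CPM in condition 4, and its groups overlapped (log2 fold change 0.37, SE 0.26, edgeR adjusted p = 0.265). ESF1 (YDR365C), a factor of early rRNA processing, rose most, from 342, 324 and 277 to 672, 724 and 566 CPM (log2 fold change 1.06, SE 0.22, edgeR adjusted p = 0.00336), and here 4B was the highest library and 4C the lowest of the treated ones. RNA polymerases I and III, which make rRNA and tRNA, had 8 upregulated and 2 downregulated members of 35, with a median of 0.03. The group had 1 rise without 1B, 1C or 4C, 0 falls without 4C, 1 without 1A or 1C, and 1 rise and 0 falls in all 6 fits. RPA135, the second largest subunit of RNA polymerase I, had 240.5, 167 and 176 against 280.1, 285 and 406 CPM (log2 fold change 0.73, SE 0.21, edgeR adjusted p = 0.0156, not a DEG without 1B, 1C or 4C, edgeR adjusted p up to 0.0619). BRF1, a subunit of the initiation factor TFIIIB, fell from 108, 115 and 119.9 to 75.7, 78.2 and 62 CPM (log2 fold change -0.67, SE 0.17, edgeR adjusted p = 0.0103, not a DEG without 4C, edgeR adjusted p up to 0.0514). The ribosome list and the biogenesis list were thus unlike in their counts, but the difference between the lists was not tested.

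In mitochondria, the lists for the ribosome and for the enzymes had opposite medians. Of 77 mitochondrial ribosomal proteins 35 were upregulated and 3 downregulated, with a median of 0.31. This list had 15 rises without 4C, 17 without 1C, 18 without 1A, 23 without 1B, 1 fall without 1A, 1B, 1C, 4B or 4C, and 9 rises and 1 fall in all 6 fits. MRPL50, of the large subunit, had 58.7, 67.8 and 49.8 CPM in the controls and 104, 98.2 and 132 CPM in condition 4 (log2 fold change 0.92, SE 0.20, edgeR adjusted p = 0.00503). EHD3, a small-subunit protein that is also a hydrolase of valine breakdown, fell from 207, 221 and 239.8 to 136, 109 and 111 CPM (log2 fold change -0.91, SE 0.14, edgeR adjusted p = 0.00102). Of 33 genes of protein import 11 were upregulated and 2 downregulated, with a median of 0.19 that went to -0.03 with library size alone. There were 6 rises without 1A, 1C or 4C, 7 without 4B, 0 falls without 1B or 4C, 1 without 1A, 1C or 4B, and 6 rises and 0 falls in all 6 fits. TOM5, a small subunit of the import pore, rose in every treated library, from 41.1, 55.2 and 47.9 to 125, 123 and 184 CPM (log2 fold change 1.58, SE 0.27, edgeR adjusted p = 0.00146). The tricarboxylic acid (TCA) cycle went the other way, with 15 of 24 genes downregulated, none upregulated and a median of -0.82. The list had 1 rise without 4A or 4B, 7 falls without 1B, and 0 rises and 7 falls in all 6 fits. The respiratory chain and ATP synthase had 8 downregulated and 1 upregulated member of 39, with a median of -0.13 that was 0.01 without 4C. The share of falls (20.5%) was near the 23.0% of all genes, and that of rises (2.56%) was below their 19.3%. The group had 3 falls without 1B or 4B, 4 without 1A, 1C or 4C, 14 without 4A, and 1 rise and 3 falls in all 6 fits. ATP2, the beta subunit of ATP synthase, had 3739, 4120 and 3708 CPM in the controls and 5659, 4872 and 5735 CPM in condition 4 (log2 fold change 0.49, SE 0.30, edgeR adjusted p = 0.201). NDE2, a NADH dehydrogenase on the outer face of the inner membrane, fell from 381, 515 and 332 to 41.2, 35.8 and 18.8 CPM (log2 fold change -3.68, SE 0.48, edgeR adjusted p = 0.000332). Of the 18 genes of the mitochondrial genome 2 passed the filter, with few counts, and 1 of them was upregulated. This list had 0 rises without 1A, 1C, 4B or 4C, and 0 rises in all 6 fits.

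All proteasome genes that changed rose, and by little. Of 33 genes 12 were upregulated and none downregulated, with a median of 0.35. There were 3 rises without 1C, 4 without 4C, 5 without 1A, and 3 rises in all 6 fits. Of all 5909 genes, 683 rose without 1C, 664 without 4C (11.2%), 842 without 1A and 553 in all 6 fits. In these fits the share of proteasome rises was thus near that of all genes. RPN9, a lid subunit of the regulatory particle, had 133, 125 and 119 CPM in the controls and 189.5, 215 and 315 CPM in condition 4 (log2 fold change 0.93, SE 0.24, edgeR adjusted p = 0.00997). RPN2, a scaffold subunit of the base and the most abundant of the list, had 337, 336 and 362 against 413, 500.3 and 754 CPM (log2 fold change 0.69, SE 0.21, edgeR adjusted p = 0.0209, not a DEG without 1A, 1B, 1C or 4C, edgeR adjusted p up to 0.071).

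The promoters of these lists hold known short sequences. Windows of 300 bases, from 250 bases before to 50 after the start codon, were read from the RefSeq R64 genome for 5916 genes and searched on both strands. GGTGGCA, the core of the site of Rpn4, the activator of proteasome genes, was in 81.8% of the 33 proteasome windows and in 2.91% of all windows. GATGAG (the PAC core) and AAAATTT (the RRPE core) were in 93.0% and 95.1% of the 143 ribosome biogenesis windows, against 19.8% and 23.5% of all, and AAAATTT was also in 81.0% of the tRNA synthetase windows. ACGCGT, the site of the G1 factor MBF, was in 45.9% of the 61 DNA replication windows and in 3.11% of all. AGGGG, the stress response element of Msn2 and Msn4, was in 55.8% of the 43 windows of general stress genes. AGGGG was as frequent in some other lists, with 57.9% of vacuolar protease and hydrolase windows and 57.8% of actin patch and endocytosis windows. It was in 31.2% of the windows of downregulated genes, 18% of those of upregulated genes, 19.7% of those of genes not called and 21.9% of all. The members were also counted by whether they held the motif. In the proteasome 10 of 27 genes with GGTGGCA and 2 of 6 without it were upregulated, and among the stress genes 12 of 24 with AGGGG and 7 of 19 without it were downregulated. Of the DNA replication genes, 7 of 28 with ACGCGT and 5 of 33 without it were upregulated, while 0 and 2 were downregulated. Rises were 11 of 17 tRNA synthetases with AAAATTT and 2 of 4 without it, and 27 of 133 biogenesis factors with GATGAG and 0 of 10 without it. Median log2 fold changes with and without the motif were close in the proteasome (0.35 and 0.37) and the stress genes (-0.51 and -0.52). So they were in tRNA synthetases (0.487 and 0.4925) and biogenesis (0.22 and 0.21), against 0.23 and 0.05 in DNA replication. A match to these letters is a description and not a site.

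For each of these lists the window of a single DEG is shown, so that the sequence behind the counts can be seen: the member with the largest change among those that hold the motif, a choice made after the shares were known. The windows are given 5′ to 3′ on the strand of the gene, in the R64 assembly, with the motif in capitals on whichever strand it lies, and the start codon follows base 250. RPN9 lies on the plus strand with its window at chrIV:1321955-1322254 and the motif 109 bases before the start codon. TYS1 lies on the minus strand with its window at chrVII:867471-867770 and 2 overlapping matches at 100 and 99 bases before it. ESF1 lies on the minus strand with its window at chrIV:1206334-1206633, where GATGAG occurs 3 times, at 184, 124 and 119 bases before the start codon and in the last 2 places on the other strand. DPB2, a subunit of DNA polymerase epsilon, lies on the plus strand with its window at chrXVI:888724-889023 and the motif at 134 bases. SDP1, a phosphatase of the CWI kinase Slt2, lies on the plus strand with its window at chrIX:150309-150608 and AGGGG on the other strand at 186 and 121 bases. Beside these sequences, RPN9, TYS1, ESF1 and DPB2 were upregulated by 0.93, 1.20, 1.06 and 1.17 on the log2 scale, and SDP1 fell by 3.01.
RPN9: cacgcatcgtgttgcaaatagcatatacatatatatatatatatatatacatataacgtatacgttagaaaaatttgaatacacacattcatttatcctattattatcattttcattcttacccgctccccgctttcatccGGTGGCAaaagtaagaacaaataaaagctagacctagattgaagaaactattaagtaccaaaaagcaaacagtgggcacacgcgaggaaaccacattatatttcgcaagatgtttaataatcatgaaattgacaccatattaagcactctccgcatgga
TYS1: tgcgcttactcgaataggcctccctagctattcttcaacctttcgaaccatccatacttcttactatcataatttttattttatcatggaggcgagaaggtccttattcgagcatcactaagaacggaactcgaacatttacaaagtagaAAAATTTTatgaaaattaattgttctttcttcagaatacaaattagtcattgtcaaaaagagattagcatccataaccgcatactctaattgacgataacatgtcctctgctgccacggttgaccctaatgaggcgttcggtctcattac
ESF1: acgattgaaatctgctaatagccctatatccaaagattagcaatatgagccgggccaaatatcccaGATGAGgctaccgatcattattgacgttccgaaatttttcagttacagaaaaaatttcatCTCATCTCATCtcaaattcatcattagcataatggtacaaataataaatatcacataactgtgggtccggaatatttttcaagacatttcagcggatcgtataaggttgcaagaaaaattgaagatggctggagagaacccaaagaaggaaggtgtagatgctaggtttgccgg
DPB2: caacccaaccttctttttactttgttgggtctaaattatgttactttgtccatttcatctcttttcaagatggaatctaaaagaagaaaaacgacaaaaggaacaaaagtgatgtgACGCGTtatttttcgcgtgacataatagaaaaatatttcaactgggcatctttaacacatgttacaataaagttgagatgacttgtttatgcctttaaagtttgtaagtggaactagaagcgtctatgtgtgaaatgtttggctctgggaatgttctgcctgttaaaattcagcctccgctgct
SDP1: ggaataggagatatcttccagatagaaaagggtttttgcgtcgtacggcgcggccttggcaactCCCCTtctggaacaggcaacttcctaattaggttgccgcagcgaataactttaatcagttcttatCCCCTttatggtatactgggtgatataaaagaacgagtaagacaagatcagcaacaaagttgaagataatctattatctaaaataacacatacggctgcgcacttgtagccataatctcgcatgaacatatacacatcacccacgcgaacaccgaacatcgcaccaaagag

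In central carbon metabolism genes of the same step often changed in unlike ways. In glycolysis and fermentation 14 of 25 genes were upregulated and 5 downregulated, with a median of 0.85. The list had 7 rises without 1A or 1C, 8 without 1B or 4B, and 7 rises and 4 falls in all 6 fits. The list's share of the counts was 4.20%, 5.17% and 4.27% in the controls and 7.28%, 8.04% and 7.04% in condition 4. HXK2, the main hexokinase on glucose, rose from 493, 364 and 354 CPM in the controls to 1341, 1562 and 2164 CPM (log2 fold change 2.06, SE 0.33, edgeR adjusted p = 0.00104), and CDC19, the pyruvate kinase of fermenting cells, from 2674, 3220 and 2532 to 6650, 7099 and 8411 CPM (log2 fold change 1.40, SE 0.31, edgeR adjusted p = 0.00545). Neither gene's groups overlapped. The 5 that fell were PDC6, ADH3, ADH5, GPM2 (lost without 1A, 1B, 1C or 4C, adjusted p up to 0.106) and PYK2, which are alternative isozymes, whereas TDH3, the most abundant gene of the list, had 9009, 12500 and 7981 CPM in the controls and 10090, 12250 and 13900 CPM in condition 4 (log2 fold change 0.30, SE 0.34, edgeR adjusted p = 0.503). Hexose transporters split as well, with 7 genes of glucose transport and sensing upregulated and 8 downregulated of 24 tested. The group had 6 rises and 6 falls in all 6 fits. HXT4, a transporter of intermediate to high affinity, had 56.5, 33.2 and 35.4 CPM in the controls and 1647, 2117 and 1062 CPM in condition 4 (log2 fold change 5.27, SE 0.60, edgeR adjusted p = 0.000136). HXT5, which is made in non-growing cells, had 2650, 2174 and 1815 and 528, 387 and 252 CPM (log2 fold change -2.51, SE 0.44, edgeR adjusted p = 0.00164).

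Of the 73 pairs of genes with the same step or function, 26 changed in the same direction, 27 had 1 member called, 9 had none, and 11 were called in opposite directions. Shares within a pair are shares of the TPM of both, so that the genes' lengths are taken into account. In alcohol dehydrogenase the share of ADH1, the fermentative enzyme, was 28.1%, 30.6% and 44.2% in controls 1A to 1C and 99.6%, 99.8% and 99.4% in 4A to 4C, where ADH2 is the enzyme that consumes ethanol. In branched-chain amino acid transamination the mitochondrial BAT1 held 20.7%, 17.5% and 24.8% in the controls and 68.7%, 59.8% and 79.1% in condition 4 (BAT1 1.05, BAT2 -2.08 on the log2 scale). In both pairs the gene with the smaller share in the controls had the larger share in condition 4.

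Apart from HXT6 and HXT7, the other opposite pairs moved by smaller parts of their total. In sterol esterification ARE1 went from 56.1%, 54.5% and 62.9% to 30.9%, 27.6% and 23.8%, with ARE2 making up the rest, and neither call held in all 6 fits (ARE1 was not a DEG without 1A, 1C, 4B or 4C, edgeR adjusted p up to 0.123). ARE2 was not a DEG without 1B or 1C, edgeR adjusted p up to 0.0528. In phosphoglucomutase the minor PGM1 rose from 8.99%, 6.17% and 5.40% to 24.2%, 26.6% and 29.9%. PMA1, the proton pump of the plasma membrane, went from 85.4%, 84.8% and 83.8% to 99.2%, 99.4% and 99.6%, as PMA2 fell by 3.29. COX5B, the subunit of cytochrome oxidase known from low oxygen, rose by 1.33 while COX5A fell by 0.92, and COX5A still held 87.7%, 79.7% and 79.4% of the pair in condition 4. In AAC1 and AAC3, GPM1 and GPM2, CDC19 and PYK2, and PDC1 and PDC6, the major gene held 96.5% or more of the pair in each of the 6 libraries, and of these calls GPM2 and PDC1 were lost without 1A, 1B, 1C or 4C (adjusted p up to 0.106 and 0.0881). HXT6 and HXT7 were also called in opposite directions, but these genes are near-identical and reads could have been divided between them either way. Among the pairs with 1 member called, GDH1 held 32.0%, 34.5% and 38.4% of the glutamate dehydrogenase pair in the controls and 91.9%, 97.2% and 99.2% in condition 4. GDH3 fell by 4.73, while GDH1 had a log2 fold change of 0.60 (edgeR adjusted p = 0.0678). KSS1, the MAP kinase of filamentous growth, rose by 1.44 and FUS3, that of mating, had a log2 fold change of -0.36 (edgeR adjusted p = 0.0802), and the share of FUS3 in this pair went from 71.7%, 72.1% and 73.7% to 47.9%, 48.0% and 35.2%.

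**Figure D2:**
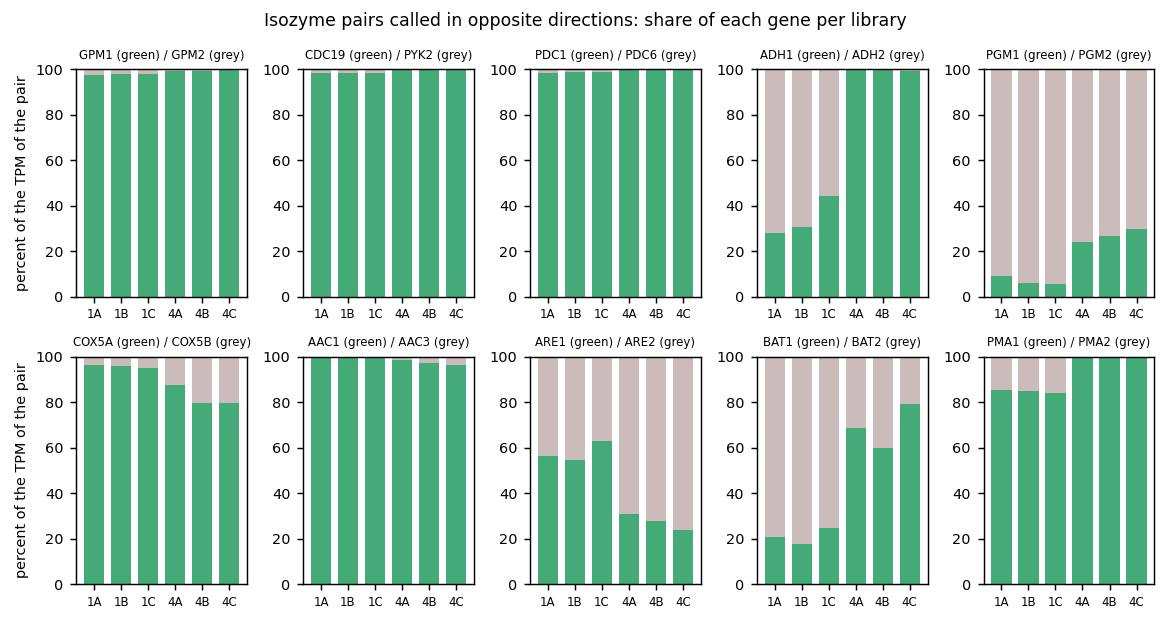
Share of each gene in the TPM of its pair (percent, y axis) in the 3 control and 3 condition 4 libraries (x axis), for 10 of the 11 pairs whose members were called in opposite directions, without the near-identical HXT6 and HXT7. Bars are single libraries, with no error bar. ADH1 goes from 28.1% to 44.2% in the controls to over 99% in condition 4, and BAT1 from under 25% to 59.8% or more.

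Among genes for growth without glucose, the glyoxylate cycle list and the fatty acid oxidation list had the largest shares of falls of the 59 lists. Of the 27 genes of the glyoxylate cycle, gluconeogenesis and acetate use 24 were downregulated, 22 of them in all 6 fits, with a median of -2.03, the lowest of the 59 lists. ICL1 (YER065C, chromosome V from 285241 to 286914), the isocitrate lyase, had 4867, 6777 and 5335 CPM in the controls and 168, 98.1 and 73.2 CPM in condition 4 (log2 fold change -5.65, SE 0.47, edgeR adjusted p = 2.88e-05). In fatty acid oxidation and the carnitine shuttle 18 of 23 fell (15 falls in all 6 fits), with a median of -1.41, and in peroxisome assembly 20 of 31 (12 falls without 4C, 13 without 1C, and 12 falls in all 6 fits), with a median of -0.52. PEX21, which helps to import peroxisomal proteins, fell from 249, 252 and 216 to 106, 72.2 and 48.9 CPM (log2 fold change -1.65, SE 0.28, edgeR adjusted p = 0.00142). ALD3, an aldehyde dehydrogenase known from stress, was the sole member of these lists that rose (log2 fold change 1.04, not a DEG without 1A or 4C, edgeR adjusted p up to 0.0767).

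Falls outnumbered rises among storage, general stress and recycling genes, and the heat shock and peroxide lists were mixed. Of 21 genes of trehalose and glycogen 12 fell and PGM1 rose, with a median of -0.54 (2 rises without 4A, 3 without 1C, and 1 rise and 7 falls in all 6 fits), while TSL1, a subunit of the trehalose synthase, had 338, 617 and 783 CPM in the controls and 472, 581 and 638 CPM in condition 4 (log2 fold change -0.04, SE 0.26, edgeR adjusted p = 0.911). GLG2, a primer protein of glycogen, fell to nearly the same level in each treated library, from 123, 92.7 and 74.3 to 21.6, 20.2 and 21 CPM (log2 fold change -2.20, SE 0.33, edgeR adjusted p = 0.000697). Of 43 general stress genes 19 fell and 3 rose, DDR48, HOR7 (lost without 1C, adjusted p up to 0.0728) and ALD3 (lost without 1A or 4C, adjusted p up to 0.0767), with a median of -0.52. This list had 1 rise and 14 falls in all 6 fits. HSP12, the most abundant of them, had 6798, 8288 and 5257 CPM in the controls and 7151, 7535 and 10920 CPM in condition 4, with overlap (log2 fold change 0.33, SE 0.41, edgeR adjusted p = 0.537). The stress list was thus not lowered as a block. Of 13 glycerol genes 5 fell and 1 rose, in all 6 fits, and the falls included GPD1 and GPP1 of glycerol synthesis and GUT1 and GUT2 of its use. The other isozymes of synthesis were not called, GPD2 with a log2 fold change of 0.08 (edgeR adjusted p = 0.72) and GPP2 with -0.19 (edgeR adjusted p = 0.721). Of 41 autophagy genes 27 fell and 2 rose, with a median of -0.69. There were 0 rises without 1A, 1C or 4C, 1 without 4A or 4B, and 0 rises and 18 falls in all 6 fits. ATG19, the receptor of the cytoplasm-to-vacuole route, went from 237, 283 and 267 to 204, 193 and 125 CPM (log2 fold change -0.59, SE 0.18, edgeR adjusted p = 0.0196, not a DEG without 1B, 1C or 4C, edgeR adjusted p up to 0.0629), and ATG36, the receptor for the degradation of peroxisomes, from 111, 108 and 84.7 to 24.3, 19.5 and 6.39 CPM (log2 fold change -2.58, SE 0.46, edgeR adjusted p = 0.00192).

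Among 41 chaperone genes 6 were upregulated and 8 downregulated, with a median of -0.02. The list had 2 rises without 1C or 4C, 3 without 1A, 5 falls without 1B, 1C or 4C, and 2 rises and 4 falls in all 6 fits. Members that act at the ribosome were on the rising side. ZUO1, a J-protein bound to ribosomes, rose from 314, 372 and 341 to 492, 644 and 812 CPM (log2 fold change 0.92, SE 0.21, edgeR adjusted p = 0.00532), and its partner SSZ1 and the Hsp70 genes SSB1 and SSB2, which are near-identical, by 0.49, 0.98 and 0.76. None of these 3 was a DEG without 1B, 1C or 4C (adjusted p up to 0.0904, 0.0662 and 0.118). CUR1 and CPR7 (lost without 1A, 1B, 1C or 4C, adjusted p up to 0.0976) were the other 2 that rose. SSA3, an Hsp70 of stressed and starved cells, fell from 2608, 3006 and 2224 to 179, 161 and 146 CPM (log2 fold change -4.01, SE 0.57, edgeR adjusted p = 0.000532). In peroxide and superoxide defence 10 genes rose and 14 fell of 36. The group had 4 rises without 1A, 1C or 4C, 9 falls without 1B, and 4 rises and 9 falls in all 6 fits. The cytosolic thioredoxin peroxidase AHP1 rose from 1081, 1612 and 1092 to 2541, 3258 and 4715 CPM (log2 fold change 1.47, SE 0.28, edgeR adjusted p = 0.00243), with the thioredoxin reductase TRR1 (1.37, SE 0.26), the glutathione peroxidase GPX2 (1.36, SE 0.21) and the transcription factor SKN7 (1.03, SE 0.26). The catalases fell, CTA1 of the peroxisome from 511, 467 and 347 to 52.6, 35.4 and 36.5 CPM (log2 fold change -3.41, SE 0.35, edgeR adjusted p = 9.71e-05) and CTT1 of the cytosol by 1.98, and so did the mitochondrial genes SOD2 and TRR2 (by 1.16 and 0.85). Of the 36, the groups did not overlap for 8 higher and 15 lower genes, against 27.4% and 31.7% of all genes.

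Along the secretory route more genes rose than fell. Of 38 genes of translocation into and folding in the endoplasmic reticulum 17 were upregulated and 1 downregulated, with a median of 0.53. This list had 9 rises without 4C, 11 without 1A or 1B, 0 falls without 1A, 1C or 4C, and 9 rises and 0 falls in all 6 fits. PDI1, the protein disulfide isomerase, had 566, 813 and 699 CPM in the controls and 1074, 1385 and 2920 CPM in condition 4 (log2 fold change 1.37, SE 0.34, edgeR adjusted p = 0.0087). HAC1 (YFL031W, chromosome VI from 75179 to 76147), the transcription factor of the unfolded protein response, rose from 198, 227 and 239 to 518, 777 and 1309 CPM (log2 fold change 1.97, SE 0.37, edgeR adjusted p = 0.00237), a count of all HAC1 reads that does not part its spliced and unspliced forms. In COPI and COPII vesicle transport 14 genes rose and 3 fell of 39, with a median of 0.39. There were 9 rises without 4C, 1 fall without 1B, 1C, 4B or 4C, and 8 rises and 1 fall in all 6 fits. ARF1, the small GTPase of COPI coats, rose from 228, 269.8 and 235 to 505, 590.2 and 980.3 CPM (log2 fold change 1.5, SE 0.31, edgeR adjusted p = 0.00379), whereas ARF2, its near relative, had a log2 fold change of -0.19 (edgeR adjusted p = 0.413). In protein glycosylation 22 genes rose and 4 fell of 58, with a median of 0.30. The list had 14 rises without 1A, 1 fall without 1C, 2 without 1A, 1B or 4B, and 14 rises and 1 fall in all 6 fits. KTR2, a mannosyltransferase, rose from 32.1, 41.8 and 40.0 to 112, 141 and 182 CPM (log2 fold change 1.93, SE 0.35, edgeR adjusted p = 0.00196), and PMT3 (lost without 1C or 4B, adjusted p up to 0.0588) and PMT5, which start O-mannosylation, were among the 4 that fell. Of 19 subunits of the vacuolar proton ATPase 9 rose and none fell, with a median of 0.46. The group had 4 rises without 1A, 1C or 4C, and 4 rises in all 6 fits. Vacuolar proteases and hydrolases had 2 rises and 6 falls of 18. This list had 1 rise without 1A, 1B, 1C, 4B or 4C, 2 falls without 1C, 3 without 1B or 4C, and 1 rise and 2 falls in all 6 fits.

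Cell wall genes rose in large shares. Of 46 genes for cell wall proteins 26 were upregulated and 8 downregulated, with a median of 1.29. There were 5 falls without 4C, and 21 rises and 5 falls in all 6 fits. NCW2, a GPI-anchored wall protein, rose most, from 64.1, 62.5 and 50.3 to 774, 1148 and 2270 CPM (log2 fold change 4.57, SE 0.93, edgeR adjusted p = 0.0034). TIP1, a mannoprotein, fell from 2514, 2631 and 1822 to 782, 688 and 829 CPM (log2 fold change -1.60, SE 0.29, edgeR adjusted p = 0.00212), and so did ZPS1, PIR5 and the flocculins FLO9 and FLO10. The other 3 falls were FLO5 (lost without 4C, adjusted p up to 0.0705), FLO11 (lost without 1A, 1C, 4B or 4C, adjusted p up to 0.0822) and FIG2 (lost without 1A, 1C, 4A, 4B or 4C, adjusted p up to 0.117), and FLO5 and FLO9 have a near-identical copy. In wall polysaccharide synthesis 20 genes rose and 3 fell of 43, with a median of 0.43. The list had 15 rises and 2 falls in all 6 fits. GAS1 (YMR307W), which elongates beta-1,3-glucan, rose from 514, 364 and 474 to 2098, 2240 and 3649 CPM (log2 fold change 2.56, SE 0.50, edgeR adjusted p = 0.00278), while GAS5 of the same family had a log2 fold change of 0.22 (edgeR adjusted p = 0.386). CRH1 (YGR189C), which links chitin to glucan, rose from 137, 154 and 139.6 to 1338, 1490 and 2470 CPM (log2 fold change 3.62, SE 0.69, edgeR adjusted p = 0.0026).

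Within the CWI pathway rises and falls stood side by side. Of 30 signalling genes 12 rose and 8 fell, with a median of 0.18 that went to -0.04 with library size alone. The group had 4 falls without 1C, 5 without 4C, and 7 rises and 4 falls in all 6 fits. The sensor WSC2 rose from 18.3, 18.8 and 16.3 to 132, 155 and 295 CPM (log2 fold change 3.45, SE 0.53, edgeR adjusted p = 0.000824) and the GTPase RHO1, which conveys the signal and activates glucan synthase, from 239, 287 and 247 to 619, 776 and 1112 CPM (log2 fold change 1.70, SE 0.40, edgeR adjusted p = 0.00649). Of the kinases PKC1 fell by 0.35 (not a DEG without 1A, 1C, 4A, 4B or 4C, edgeR adjusted p up to 0.119), MKK1 by 0.66 (not a DEG without 1C or 4C, edgeR adjusted p up to 0.0697) and MKK2 by 0.85 (in all 6 fits). Of the exchange factors of Rho1, ROM1 fell by 0.99 and TUS1 by 0.47 (not a DEG without 1C, edgeR adjusted p up to 0.0675). SLT2, the last kinase, and RLM1 (lost without 1B, 1C, 4B or 4C, adjusted p up to 0.186), its transcription factor, rose by 2.03 and 0.55. Of the phosphatases SDP1 fell from 28.9, 34.8 and 23.8 to 3.92, 3.82 and 2.98 CPM (log2 fold change -3.01, SE 0.48, edgeR adjusted p = 0.00105). The HOG pathway of osmotic stress had 9 genes up and 4 down of 29, with a median of 0.37. This list had 2 falls without 1C or 4C, and 6 rises and 2 falls in all 6 fits. MSB2, a mucin-like sensor shared with filamentous growth, rose from 168, 161 and 218 to 453, 478 and 783 CPM (log2 fold change 1.65, SE 0.26, edgeR adjusted p = 0.000926), while STE11, PRR2, HOT1 (lost without 1A, 1C or 4C, adjusted p up to 0.0917) and STE50 (lost without 1C or 4C, adjusted p up to 0.0592) fell.

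In the cell cycle lists more genes rose than fell, and the medians were highest for G1 targets and daughter cell separation. By share of rises histones came first (81.8%), before G1 targets (72.1%), and DNA replication (19.7%) was near all genes (19.3%). RNA of a bulk culture cannot tell more cells in a phase from more RNA per cell. Of 43 targets of the G1 factors SBF and MBF 31 were upregulated, with a median of 1.31. There were 2 falls without 1B, and 27 rises and 1 fall in all 6 fits. CLN1 and CLN2, the G1 cyclins, rose by 2.41 (SE 0.52) and 2.56 (SE 0.46), from 51.7, 50.3 and 49.9 to 257, 212 and 337 CPM and from 38.6, 32.4 and 27.9 to 162, 153 and 271 CPM. All 3 treated libraries lay above the controls for both. TOS8 was the sole DEG of this list that fell (log2 fold change -1.27). Of 11 histone genes 9 rose (6 rises in all 6 fits), with a median of 1.07, and HHF2, for histone H4, rose from 144, 163 and 127 to 561, 619 and 1024 CPM (log2 fold change 2.35, SE 0.51, edgeR adjusted p = 0.00441), with a near-identical copy in HHF1.

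The machinery of replication held fewer DEGs. Of 61 genes of DNA replication 12 rose and 2 fell, near the background of 19.3% for rises, with a median of 0.13 that went to -0.06 with library size alone. The list had 5 rises without 1C, 7 without 1A, 1 fall without 1A, 4B or 4C, and 5 rises and 1 fall in all 6 fits. The rises included ribonucleotide reductase, RNR1 from 149, 90.7 and 82.5 to 581, 391 and 407 CPM (log2 fold change 2.10, SE 0.51, edgeR adjusted p = 0.0078) and RNR4 from 801, 800.0 and 722 to 2122, 2076 and 2554 CPM (log2 fold change 1.54, SE 0.37, edgeR adjusted p = 0.00742). ORC1 (lost without 1A, 1C, 4A, 4B or 4C, adjusted p up to 0.145), of the origin recognition complex, and TAH11, which loads the helicase, were the 2 that fell. In the mitotic group, 24 of 39 genes rose and 3 fell, with a median of 0.54. The group had 15 rises without 4C, 1 fall without 1C, and 15 rises and 1 fall in all 6 fits. CLB2, a mitotic cyclin, rose from 8.88, 8.88 and 7.86 to 53.8, 73 and 149 CPM (log2 fold change 3.42, SE 0.46, edgeR adjusted p = 0.000369), and CDH1, which directs its destruction, fell from 105, 104 and 91.2 to 69.7, 65.2 and 58.5 CPM (log2 fold change -0.63, SE 0.13, edgeR adjusted p = 0.0034). SWI5, a factor of genes made as cells leave mitosis, rose by 2.26, and 16 of 26 genes of daughter cell separation rose with none falling, with a median of 1.16. This list had 10 rises in all 6 fits. DSE2, a glucanase of the daughter side, rose from 29.6, 26.2 and 22.9 to 200.1, 349 and 254 CPM (log2 fold change 3.35, SE 0.57, edgeR adjusted p = 0.00149). In septins and bud site genes 14 rose and 2 fell of 32 (8 rises without 4C, 9 without 1B, 1 fall without 1C, 4B or 4C, and 8 rises and 1 fall in all 6 fits), GIC2, an effector of Cdc42, most (2.88, SE 0.54), and ACT1, the actin gene, rose from 1032, 1350 and 1211 to 2412, 3130 and 5840 CPM (log2 fold change 1.66, SE 0.37, edgeR adjusted p = 0.00534), while of the 45 actin patch and endocytosis genes 6 rose, ACT1 among them, and 6 fell. There were 3 rises without 1A, 2 falls without 1C or 4C, and 3 rises and 2 falls in all 6 fits.

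**Figure D3:**
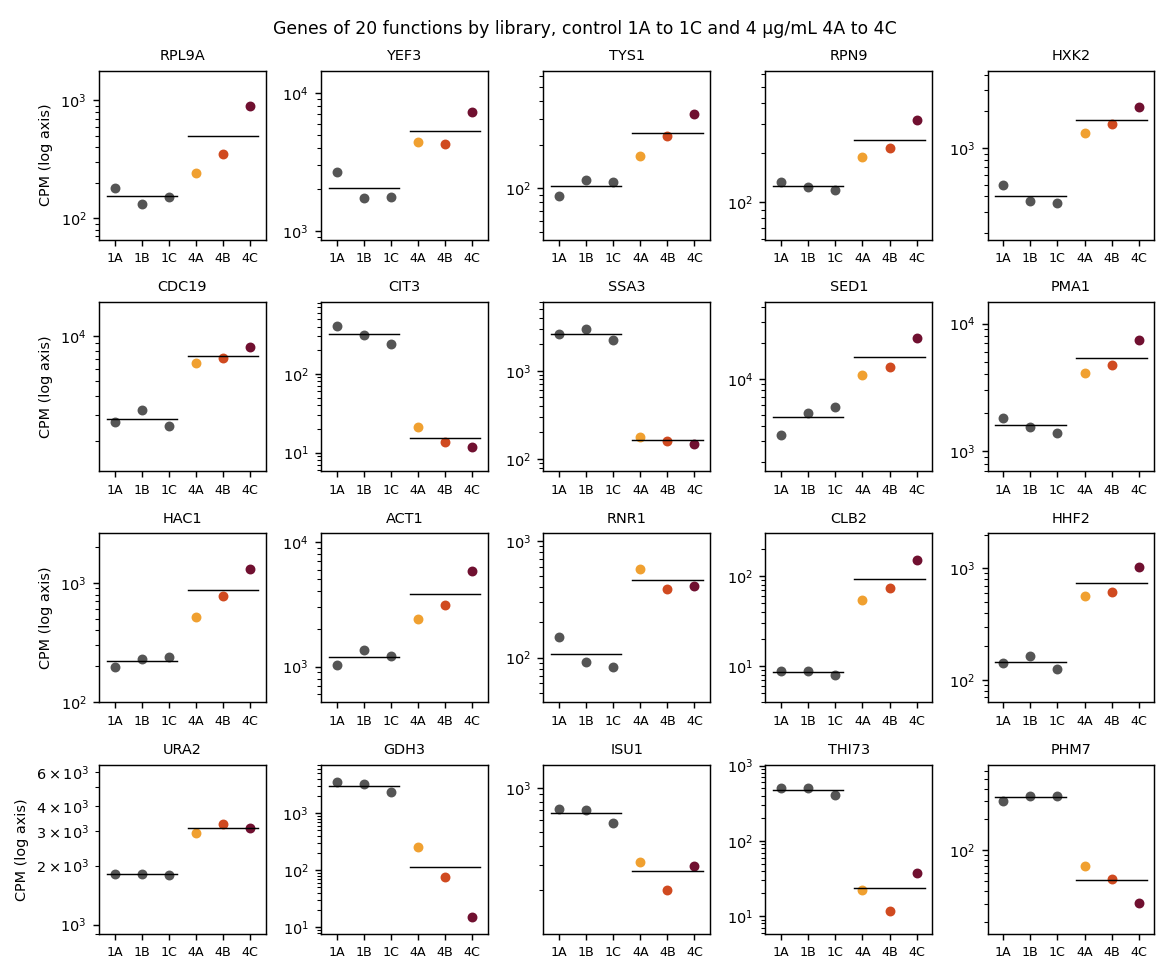
CPM (y axis, log scale) of 20 genes of different functions in each control (grey) and each condition 4 library (coloured), with a line at each group mean. In all 20 panels the 3 treated libraries lie on the same side of the 3 controls. The genes were chosen on these same libraries, so this was nearly fixed in advance. The groups did not overlap for 59.1% of all genes tested. RPL9A, ACT1 and HAC1 are highest in 4C, whereas RNR1 is highest in 4A, URA2 in 4B, and THI73 and ISU1 are lowest in 4B.

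Uptake and synthesis of nutrients changed gene by gene. Of 65 genes of amino acid synthesis 13 rose and 7 fell, close to or below the shares of all genes, with a median of 0.26. The list had 7 rises without 1C, 8 without 4C, 4 falls without 1B, 1C or 4C, and 6 rises and 3 falls in all 6 fits. HIS1, of histidine synthesis, rose from 146, 150.0 and 149.6 to 248, 279 and 683 CPM (log2 fold change 1.44, SE 0.40, edgeR adjusted p = 0.0144, not a DEG without 4C, edgeR adjusted p up to 0.0726), while LEU4 of leucine and LYS20, LYS1 (lost without 1C or 4C, adjusted p up to 0.0556) and LYS4 (lost without 1A, 1B, 1C, 4A, 4B or 4C, adjusted p up to 0.167) of lysine fell, LEU4 from 1167, 1027 and 822 to 448, 429 and 612 CPM (log2 fold change -1.02, SE 0.27, edgeR adjusted p = 0.0121). GLN1, the glutamine synthetase and the most abundant of the list, had 4249, 4626 and 3709 CPM in the controls and 5200, 5528 and 3077 CPM in condition 4 (log2 fold change 0.13, SE 0.29, edgeR adjusted p = 0.731). In sulfate assimilation and methionine synthesis 10 rose and 8 fell of 32. The group had 4 rises without 4C, 5 without 1B, 6 without 1A or 1C, 5 falls without 1C, 4B or 4C, and 4 rises and 5 falls in all 6 fits. Among the rises were the S-adenosylhomocysteine hydrolase SAH1 from 806, 475 and 539 to 1178, 1344 and 1876 CPM (log2 fold change 1.27, SE 0.30, edgeR adjusted p = 0.00657) and CYS3, of cysteine synthesis, from 44.3, 49.2 and 73 to 172, 259.8 and 564 CPM (log2 fold change 2.58, SE 0.52, edgeR adjusted p = 0.00329). MET10 (lost without 1C, 4B or 4C, adjusted p up to 0.0797) and MET1, needed for sulfite reduction, the activator MET4 (lost without 1A, 1C, 4B or 4C, adjusted p up to 0.0963) and the transporters SAM3 and MMP1 lay among the falls, SAM3 by 1.71. MET17 itself is deleted in this strain.

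Amino acid permeases fell in 11 of 25 cases and rose in 4, with a median of -0.70. This list had 1 rise without 1B or 1C, and 0 rises and 8 falls in all 6 fits. GNP1 and BAP3, of the plasma membrane, rose by 1.57 and 1.15, calls that were lost without 1B (BAP3 was not a DEG without 1B, edgeR adjusted p up to 0.0624, and GNP1 not a DEG without 1B or 1C, edgeR adjusted p up to 0.0528). AGP2 fell by 2.77 and GAP1, the general permease, had 2095, 2416 and 1872 CPM in the controls and 1674, 1287 and 290.2 CPM in condition 4, lowest in 4C and not a DEG (log2 fold change -0.97, SE 0.50, edgeR adjusted p = 0.136). Nitrogen catabolite genes had 11 falls and 1 rise among 36, with a median of -0.38 that lay at -0.04, -0.34 and -0.80 in 4A, 4B and 4C. There were 0 rises without 1A, 1B, 1C, 4A or 4C, and 0 rises and 8 falls in all 6 fits. GDH2, which releases ammonium from glutamate, fell to nearly the same level in each treated library, from 1476, 1327 and 1148 to 271, 280.2 and 255 CPM (log2 fold change -2.29, SE 0.27, edgeR adjusted p = 0.000155). Purine and pyrimidine synthesis had 8 rises and 2 falls of 33 (3 rises without 4C, 4 without 1B or 1C, 6 falls without 4A, and 2 rises and 2 falls in all 6 fits), and URA2, its most abundant gene, rose from 1808, 1814 and 1797 to 2947, 3261 and 3113 CPM (log2 fold change 0.78, SE 0.22, edgeR adjusted p = 0.0151, not a DEG without 1C, edgeR adjusted p up to 0.0528).

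Thiamine and iron genes fell in larger shares than all genes did. Of 25 thiamine genes 18 fell and none rose, with a median of -1.42, and 15 of the falls were in all 6 fits. THI7, the thiamine transporter, fell from 886, 746 and 757 to 330.5, 212 and 349 CPM (log2 fold change -1.42, SE 0.25, edgeR adjusted p = 0.00181) and THI73, another membrane transporter, from 511, 510.3 and 411 to 22.1, 11.7 and 37.9 CPM (log2 fold change -4.33, SE 0.53, edgeR adjusted p = 0.000237). Of the 25 genes 8 have a near-identical copy, and 10 of the other 17 fell. Of 38 genes of iron uptake and use 21 fell and 3 rose, HMX1, ATX1 (lost without 1C or 4C, adjusted p up to 0.059) and ISU2 (lost without 1A, 1B, 1C, 4A, 4B or 4C, adjusted p up to 0.131), with a median of -0.58. The list had 1 rise without 1C or 4C, and 1 rise and 16 falls in all 6 fits. ISU1, the scaffold of iron-sulfur cluster assembly, fell from 716, 709.8 and 579.5 to 311, 203 and 294 CPM (log2 fold change -1.31, SE 0.22, edgeR adjusted p = 0.00147). Phosphate genes were mixed, with 10 rises and 7 falls of 32. The group had 6 rises without 1C, 3 falls without 1A, 1B or 4C, and 6 rises and 1 fall in all 6 fits. PHO5, the secreted acid phosphatase, rose from 156, 133 and 106 to 282, 333 and 388 CPM (log2 fold change 1.35, SE 0.27, edgeR adjusted p = 0.00296), while PHO84, the high-affinity transporter, had 2915, 2253 and 1799 CPM in the controls and 1899, 1907 and 2970 CPM in condition 4 (log2 fold change -0.04, SE 0.29, edgeR adjusted p = 0.92). PHM7, a membrane protein named for phosphate metabolism, fell from 305, 336 and 342 to 70.3, 52.1 and 30.4 CPM (log2 fold change -2.68, SE 0.35, edgeR adjusted p = 0.000343).

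In lipid synthesis rises outnumbered falls. In ergosterol synthesis 11 genes rose and 3 fell of 30, with a median of 0.43 (3 rises without 1C, 5 without 4C, 7 without 1B, 1 fall without 1A, 1C, 4B or 4C, and 3 rises and 1 fall in all 6 fits), and ERG4, of the last step, rose from 99.6, 99.7 and 86.6 to 326, 289.7 and 617 CPM (log2 fold change 2.11, SE 0.42, edgeR adjusted p = 0.00308). ECM22, an activator of sterol genes, fell (-0.84, SE 0.19). In fatty acid and phospholipid synthesis 16 rose and 2 fell of 40, with a median of 0.59. This list had 11 rises and 2 falls in all 6 fits. ELO3, which makes very long fatty acids, rose from 84.7, 66.1 and 67.2 to 242, 276 and 586 CPM (log2 fold change 2.34, SE 0.54, edgeR adjusted p = 0.00599), and the 2 that fell were PAH1, the phosphatidate phosphatase that turns membrane lipid precursors to storage fat (-1.46, SE 0.28), and the acyltransferase GPT2 (-1.14, SE 0.23). Sphingolipid genes had 9 rises and 3 falls of 26, with a median of 0.19 that went to -0.0024 with library size alone (2 rises without 4C, 3 without 1C, 4 without 1B, 1 fall without 1C or 4C, and 2 rises and 0 falls in all 6 fits), and ORM2, a regulator of the pathway, rose by 1.31 (not a DEG without 1C or 4C, edgeR adjusted p up to 0.0629).

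Among 41 tested genes of eisosomes, the SUR7 family and membrane transport, 10 rose and 16 fell. There were 8 rises and 13 falls in all 6 fits. SUR7 and PUN1 rose by 2.03 (SE 0.37) and 2.99 (SE 0.67) and INA1, of the same family, from 3.1, 2.55 and 2.55 to 23, 56 and 62.7 CPM. The drug pumps PDR5 and QDR2 rose by 1.73 and 2.74, and TPO2, a polyamine exporter with a near-identical copy in TPO3, by 4.71. FAT3, a protein of fatty acid uptake, fell from 617, 493 and 478 to 27.9, 26.1 and 23 CPM (log2 fold change -4.36, SE 0.51, edgeR adjusted p = 0.000155). Phosphoinositide and sphingoid signalling had 3 rises and 8 falls of 27, with a median of -0.18. The list had 1 rise without 1B, 1C or 4B, 5 falls without 1C or 4C, and 1 rise and 5 falls in all 6 fits. The transport list held genes with log2 fold changes of over 4 in both directions.

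Chromatin, the nuclear pore and nutrient signalling had smaller shares of DEGs than all genes did. Of 56 genes of chromatin remodelling and SAGA 6 rose and 3 fell. The group had 3 rises without 1A, 1B, 1C or 4C, 1 fall without 1C, 4B or 4C, and 2 rises and 1 fall in all 6 fits. Of 42 genes of Ras, PKA and TORC1 signalling 2 rose and 6 fell. This list had 1 rise without 1B, 1C or 4C, and 1 rise and 5 falls in all 6 fits. Of 55 genes of the nuclear pore 10 rose and 4 fell. There were 3 rises without 4C, 4 without 1A or 1B, 5 without 1C, 0 falls without 1C, 1 without 4B, and 3 rises and 0 falls in all 6 fits. PDE1, a cAMP phosphodiesterase, was an exception, from 103, 134 and 124 to 315, 365 and 346 CPM (log2 fold change 1.51, SE 0.26, edgeR adjusted p = 0.00155). RNA polymerase II with mediator had 10 rises and 7 falls of 35 and a median of 0.19 that went to -0.02 with library size alone. The list had 2 rises without 1A, 4 without 1C, 5 without 4B or 4C, 3 falls without 1C, 4 without 1A, 4B or 4C, and 1 rise and 3 falls in all 6 fits. The falls were mediator genes, SSN2, MED8, NUT2, SSN8 (lost without 1C, adjusted p up to 0.0653), SRB8 (lost without 1A, 1C, 4B or 4C, adjusted p up to 0.183), MED2 (lost without 1A, 1C, 4B or 4C, adjusted p up to 0.155) and MED6 (lost without 1A, 1C, 4B or 4C, adjusted p up to 0.0876). The mediator genes ROX3, CSE2 (lost without 1A, 1B, 1C, 4B or 4C, adjusted p up to 0.106) and SRB7 (lost without 1C, adjusted p up to 0.0531) rose, ROX3 from 274, 184 and 169 to 548, 509 and 523 CPM (log2 fold change 1.33, SE 0.30, edgeR adjusted p = 0.00508). Splicing factors had 19 falls and 2 rises of 61 (4 rises without 1A, 10 falls without 4C, 11 without 1C, and 2 rises and 10 falls in all 6 fits), with a median of -0.18, and SYF2 fell most (-1.0, SE 0.25).

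Pheromone response and a-cell genes had 22 rises and 9 falls of 46, with a median of 0.37. The group had 3 falls without 1C, 4 without 4C, and 18 rises and 3 falls in all 6 fits. CHS1, a chitin synthase used in repair at cell separation and also induced by pheromone, rose from 93.4, 75.4 and 95 to 655, 746 and 1308 CPM (log2 fold change 3.36, SE 0.79, edgeR adjusted p = 0.00672). The cascade genes STE7, STE11 and STE50 fell by 0.57, 0.64 and 0.62, and of these STE11 was a DEG in all 6 fits, while STE7 was lost without 1C, 4B or 4C and STE50 without 1C or 4C (adjusted p up to 0.0699 and 0.0592). Sporulation and meiosis genes, of which 52 of 60 were tested, had 7 rises and 10 falls. This list had 2 rises without 1C, 3 without 1B or 4C, and 2 rises and 6 falls in all 6 fits. Of 35 seripauperin and DAN/TIR genes 19 were tested, 8 fell and 1 rose, with a near-identical copy for 7. There were 2 rises without 4A, and 1 rise and 6 falls in all 6 fits. The most abundant sporulation gene, SPO14, had 156, 126 and 163 CPM in the controls and 119.9, 133 and 97.8 CPM in condition 4 (log2 fold change -0.35, SE 0.15, edgeR adjusted p = 0.0813).

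Some small changes were among the precisely measured ones. The 10 DEGs with the smallest adjusted p among those that changed by less than 1 on the log2 scale all fell: TPN1, BYE1, EHD3, STB4, ARG8, SPO71, STR2, YDR338C, QRI7 and TRR2. TPN1 (YGL186C, chromosome VII from 151037 to 152776), the transporter of vitamin B6, had 127, 121 and 116 CPM in the controls and 63.6, 66.2 and 63.4 CPM in 4A, 4B and 4C (log2 fold change -0.92, SE 0.12, edgeR adjusted p = 0.000361). ARG8, of arginine synthesis in mitochondria, had 95.7, 118 and 121 against 69.4, 56.7 and 57.1 CPM (log2 fold change -0.87, SE 0.14, edgeR adjusted p = 0.00113), and QRI7, which modifies mitochondrial tRNA, 41.3, 41.1 and 35.9 against 24.6, 18.7 and 16.8 CPM (log2 fold change -0.97, SE 0.17, edgeR adjusted p = 0.0018). The treated libraries lay under the controls for each of the 10, against 31.7% of all genes, and each was a DEG in all 6 fits. The 10 were chosen by adjusted p on the same libraries, so both traits were largely set by that choice.

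The 3 treated libraries were not equally far from the controls. Of the 2496 DEGs, 4A was the treated library nearest to the control mean for 1760 (70.5%), 4B for 536 (21.5%) and 4C for 200 (8.01%). The library farthest from the controls was 4C for 2093 (83.9%), 4B for 266 (10.7%) and 4A for 137 (5.49%). Both held, 4A nearest and 4C farthest, for 1617 genes (64.8%), 774 of the 1139 upregulated (68.0%) and 843 of the 1357 downregulated ones (62.1%). These counts use genes called with the library in question. Over genes called in the fit without it, the change of a library relative to the mean change of the other 2 treated libraries had a median of 0.66 in 4A (2460 genes), 0.84 in 4B (2002 genes) and 1.41 in 4C (1491 genes). Those other 2 libraries both chose the genes and gave the divisor, which can lower these ratios. How much of the distance of 0.66 and 0.84 from 1 came from this was not tested. The quartiles were 0.49 and 0.81 in 4A, 0.73 and 0.96 in 4B, and 1.14 and 1.73 in 4C. Up- and downregulated genes gave nearly the same medians, 0.62 and 0.68 in 4A and 1.44 and 1.40 in 4C. Over genes called in the fit without it, each control set against the other 2 lay at 0.08, 0.02 and 0.04 of the way to condition 4. The replicates have no order, and no label parts the 3 flasks of condition 4.

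**Figure D4:**
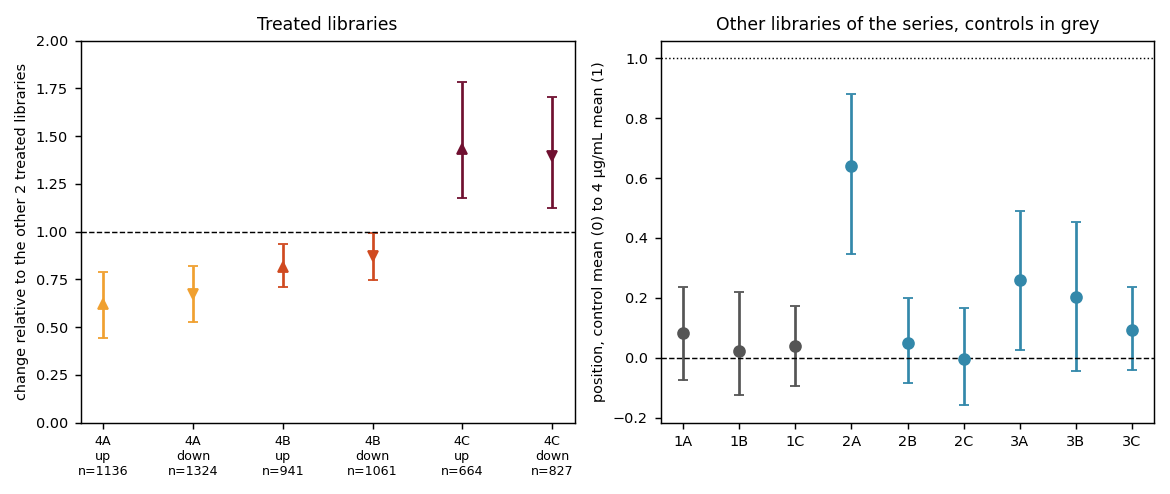
Left, change of each condition 4 library relative to the mean change of the other 2 (y axis; 1 is an equal change), over genes up- or downregulated in the fit without that library, as median (symbol) and quartiles (bars). Choosing the genes on the other 2 libraries can lower these values. Right, position of the other 9 libraries between the controls (0) and the condition 4 mean (1). Libraries of 1 and 2 µg/mL are placed from the control mean, over the genes called at 4 µg/mL. Each control is placed from the mean of the other 2, over genes called in the fit without it. The medians of 4C are 1.44 and 1.40 and those of 4A are 0.62 and 0.68, and the controls lie between 0.02 and 0.08.

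The size of the grading varied between lists, a difference that was not tested. In cytosolic ribosomal proteins the median log2 difference from the control mean was 0.40 in 4A, 0.71 in 4B and 1.69 in 4C, and 120 of the 123 DEGs (97.6%, against 64.8% of all DEGs) had 4A nearest and 4C farthest. Translation factors (0.30, 0.43 and 0.92), endoplasmic reticulum genes (0.22, 0.36 and 0.82), proteasome (0.12, 0.33 and 0.57) and TCA cycle (-0.41, -0.84 and -1.44) also differed from 4A to 4C. In cell wall proteins the medians were 0.85, 1.11 and 1.83, with 24 of 34 DEGs in this order (70.6%, near the share of all DEGs).

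In other lists the medians of 4A and 4C were closer, and the ratio of the former to the latter is given for each. Glycolysis had medians of 0.72, 0.80 and 0.73 (ratio 0.996), with 11 of 19 DEGs nearest in 4A and farthest in 4C (57.9%, near the 64.8% of all DEGs). The G1 targets had 1.13, 1.08 and 1.29 (ratio 0.873), with 9 of 32 DEGs in this order. Histones had 1.01, 0.96 and 1.25 (ratio 0.807), mitochondrial ribosomal proteins 0.28, 0.26 and 0.37 (ratio 0.747, with 13 of 38) and DNA replication 0.18, 0.0035 and 0.19 (ratio 0.922, with 3 of 14). Library 4C was still the farthest for 21 of 32 DEGs of the G1 targets and 9 of 9 of the histones. It was so for 28 of 38 mitochondrial ribosomal and 8 of 14 replication DEGs, against 83.9% of all DEGs. The thiamine list was lowest in 4B (-1.24, -1.75 and -1.39, ratio 0.893). The glyoxylate and gluconeogenesis list had -1.72, -2.08 and -2.31 (ratio 0.745) and fatty acid oxidation -1.12, -1.33 and -2.01 (ratio 0.557). Though their medians were closer, most of their DEGs had 4A nearest and 4C farthest. These were 18 of 25 (72.0%) and 15 of 18 (83.3%), against 64.8% of all DEGs. Respiration was not such a list, as its libraries differed in sign, with 0.13 in 4A, -0.15 in 4B and -0.42 in 4C. Of its DEGs 8 of 9 (88.9%) had 4A nearest and 4C farthest.

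Single genes show how far this went. Among DEGs of more than 4-fold, PCK1, the gluconeogenic enzyme, had 469, 168 and 37.4 CPM in 4A, 4B and 4C against 5690, 4354 and 3514 in the controls, and GDH3 251, 75.9 and 15.2 against 3530, 3271 and 2327 CPM, so that 4A and 4C differed by more than 10-fold in both. SFC1, a mitochondrial succinate carrier, and FBP1, fructose bisphosphatase, were spread as widely, with 123, 37.9 and 7.25 and 212, 91 and 21.5 CPM. At the other end, PCS60, a peroxisomal ligase, had 205, 215 and 224 CPM against 724, 979 and 978, and GPI18, of GPI anchor synthesis, 129, 139.7 and 128 against 31.1, 22.6 and 26.2 CPM (log2 fold change 2.31, SE 0.68, edgeR adjusted p = 0.0176, not a DEG without 1B or 1C, edgeR adjusted p up to 0.0618). ENA1, a sodium pump with near-identical copies, also had almost equal treated values (11.4, 11.8 and 11.9 CPM). A few abundant genes ran against the main course: ENO1 had 5300, 5734 and 3454 CPM in 4A, 4B and 4C against 1748, 2392 and 1797 in the controls (log2 fold change 1.29, SE 0.43, edgeR adjusted p = 0.0288, not a DEG without 1A, 1B, 1C, 4A or 4B, edgeR adjusted p up to 0.0904), HXT4 was highest in 4B, and ESF1 was lowest in 4C.

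**Figure D5:**
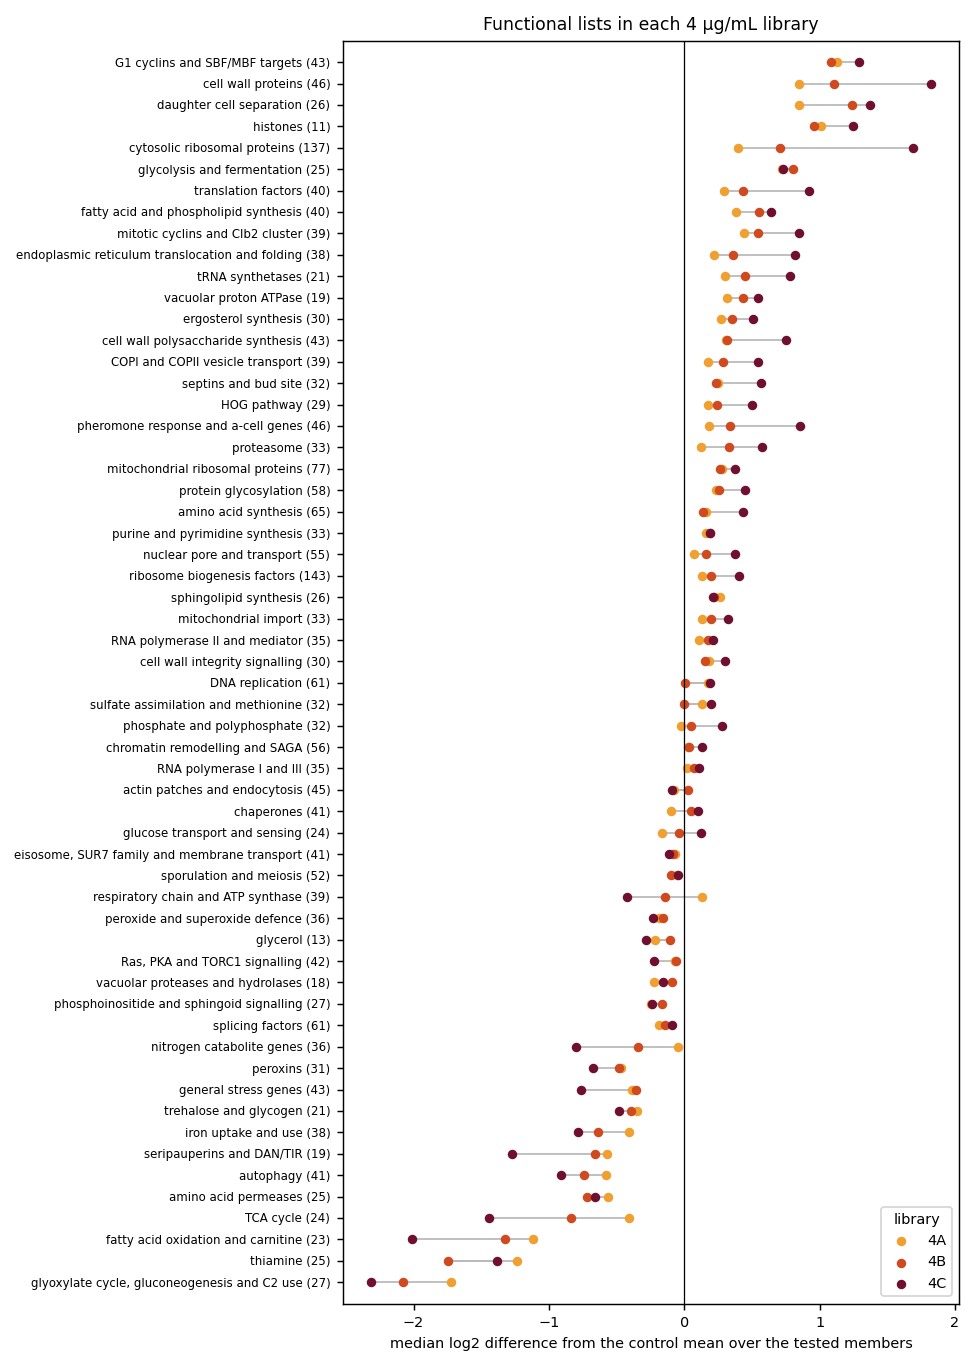
Median log2 difference from the control mean (x axis) over the tested members of each functional list (y axis, number tested in parentheses) in 4A, 4B and 4C, joined by a grey line and ordered by the list's median log2 fold change. The list of the mitochondrial genome, with 2 genes tested, is not drawn. Cytosolic ribosomal proteins run from 0.40 to 1.69, whereas the 3 points of glycolysis lie between 0.72 and 0.80.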

How the data were processed

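Poly(A) RNA libraries (TruSeq RNA v2, which does not mark strand, single-end reads of 75 bases) were made from BY4741 flasks. According to the submitters' processing notes and the methods, reads were trimmed (Trimmomatic 0.39), aligned to the R64 genome (Bowtie2 2.3.2) and counted per gene (HTSeq 0.9.0), and differential expression used DESeq2. The authors deposited raw counts per feature, not normalized, in 1 table. Counting options for strand and for reads that match several genes are not given in the sources used here, so genes with a near copy (95% identity over 100 bases or more by blastn 2.17.0, 137 tested genes) or an overlapping gene (138 tested genes) are uncertain.

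Of 6600 features, 5917 were matched by name to the RefSeq R64 annotation. Features with a mean of at least 1 TPM (1 CPM for the 247 without a length) entered edgeR 4.0.16 (R 4.3.3): TMM factors, quasi-likelihood F test over 12 libraries with 4 groups, no covariate, Benjamini-Hochberg adjustment over 5909 genes, threshold 0.05. Standard errors (SE) were taken from the fold change and the F statistic, as |log2 fold change| over the root of F. CPM values use TMM-scaled library sizes, apart from the filter and the a-cell and alpha-cell sums, which use library size alone. The log2 differences add a prior count of 2. The fit was also run on simulated counts, the outcome of which is not reported here. An exact permutation test of 3 against 3 cannot give a p under 0.1, so none was used. The 59 gene lists, the 73 pairs and the rule for named genes were chosen with earlier results of these data known. The rule took, per list, the DEG with the largest change in each direction, the most abundant member and DEGs against the majority; the 10 largest rises and falls in CPM; the 10 smallest adjusted p among changes under 1; the 5 widest and 5 narrowest ranges over treated libraries among changes over 2; and every pair. Genes with a mean count under 20 in both groups were not named by it, and other genes in the text were chosen after their values were seen. A number of 14 alternatives were run: DESeq2 1.42.0, only the 2 groups, 2 filters, 2 normalizations, a replicate block, each of the 6 libraries left out, and 2A left out. Promoters were searched on both strands in the RefSeq R64 genome.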

Additional observations from a re-analysis of the deposited data

Results flagged for a closer look

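The libraries of the lower doses were not part of the comparison. Of these, 2A, 3A and 3B had higher positions than any control, while 3C lay near the highest control. The position of a library between the control mean (0) and the condition 4 mean (1), as the median over the 2496 genes called at 4 µg/mL, was 0.6391 in 2A, replicate 1 of 1 µg/mL. It was 0.2611 in 3A, 0.2015 in 3B and 0.0936 in 3C, the 3 replicates of 2 µg/mL, whereas 2B and 2C of 1 µg/mL lay at 0.0508 and -0.002. The controls lay between 0.0241 and 0.0828, but each was placed against the other 2, over genes called in the fit without it. The controls and the lower doses thus rest on unlike genes and zero points. Position over the DEGs did not follow the dose in 2A, which lay nearer to condition 4 than any library of 2 µg/mL, and the difference between these libraries was not tested. Genes upregulated at 4 µg/mL held 34.3% of the counts in 2A, 29.8% in 3A, 27.3% in 3B and 23.7% in 3C, against 22.4% to 23.0% in the controls.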

How the results depend on the processing

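The counts of DEGs were least stable to the loss of a library. Leaving out each of the 6 libraries in turn gave 664 to 1136 upregulated genes (664 without 4C, 683 without 1C) and 827 to 1324 downregulated ones (827 without 4C). Without 4C 58.8% of the DEGs remained and without 1C 65.7%, with no change of sign, and the median of the respiratory chain list ranged from -0.2821 without 4A to 0.0128 without 4C. With library size alone there were 756 upregulated and 1570 downregulated genes, and the medians of 5 lists changed sign, to -0.0176 for RNA polymerase II and mediator, -0.0273 for mitochondrial import, -0.0024 for sphingolipid synthesis, -0.0372 for CWI signalling and -0.0626 for DNA replication. With it 4A was nearest to the controls for 74.6% of the DEGs and 4B for 18%, 4C was farthest for 85.4% and 4B for 9.29%, and 69.8% had 4A nearest and 4C farthest (54.5% of the upregulated and 77.2% of the downregulated ones). The cause of these shifts was not tested. DESeq2 gave 1363 and 1343 DEGs, RLE factors 1242 and 1241, only the 2 groups 1156 and 1367, and no 2A 1330 and 1453.

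With the replicate number as a block there were 1005 upregulated and 1211 downregulated genes, 88.1% of the DEGs remaining. Whether the numbers pair the flasks is not established: the deviations from the group means of 1A and 4A, 1B and 4B, and 1C and 4C correlated at 0.156, 0.159 and 0.0176 across genes. Each control correlated best with the condition 4 library of its own number, but 4C correlated best with 1B (0.0246), so not every library did, and this is a hint from the data and not from the design.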
